A study of Homo sapiens with 16 samples.

Results

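The ZNF genes are the human genes whose symbol is ZNF followed by a number, most of which encode C2H2 zinc finger proteins. Matching that pattern to the gene names in the deposited table of Argonaute 2 (Ago2) peaks gave 53 of its 2213 genes, with 114 of its 4718 distinct peaks. A peak is a stretch of RNA where Ago2, which holds a microRNA and pairs it with complementary transcripts, was crosslinked, precipitated and sequenced (CLIP). 293S cells, a line established from human embryonic kidney, were given 1 µM hippuristanol for 30 min or left untreated. The labels give 2 replicates per treatment for CLIP with each of 3 Ago2 antibodies, from Abnova, Santa Cruz and Sigma, which makes 12 CLIP libraries, and 2 per treatment for RNA-seq, whose 4 libraries were not analysed here. The table gives each peak 1 log average over hippuristanol-treated and untreated cells and 1 log ratio of hippuristanol-treated over untreated cells, pooled over libraries by the authors.

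A C2H2 zinc finger is a short fold in which a pair of cysteines and a pair of histidines hold a zinc ion, and ZNF proteins carry many of them in a row, each with its linker spanning 28 residues or 84 nt of coding sequence (CDS). Many ZNF proteins also have a KRAB domain, which recruits the corepressor TRIM28 to silence transposable elements, and many of their genes lie in clusters on chromosome 19. The finger exons are repeats of one another, and a microRNA seed match within a finger can recur through the coding exon; such coding matches are a known feature of this family, whereas most animal microRNA sites studied lie in 3′ UTRs. Hippuristanol blocks eIF4A, the RNA helicase that unwinds 5′ leaders before ribosomes load, and so reduces new rounds of translation.

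The microRNAs below are shown because their 7-nt seed matches were dense in ZNF coding sequence. The mature sequences are from RefSeq (GRCh38.p14), with the seed, bases 2 to 8, in capitals.
miR-181a-5p: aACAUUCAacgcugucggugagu
miR-23a-3p: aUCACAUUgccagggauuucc
miR-199a-5p: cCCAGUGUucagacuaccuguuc
The matching sites in a transcript read TGAATGT for miR-181a-5p, AATGTGA for miR-23a-3p and ACACTGG for miR-199a-5p, and were searched on the sense strand only.

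The next windows show the repeat in ZNF180, which encodes a KRAB zinc finger protein and had a CDS peak. They are short stretches of its coding sequence from GENCODE 29 on GRCh38, minus strand of chromosome 19. In each window 1 miR-181a-5p site is in capitals. The windows that start at 44477321 and 44476817 each hold another such site a few bases further on, left in lower case.
chr19:44477405-44477434: agagaaacctttTGAATGTaatcagtgtgg
chr19:44477321-44477350: ggagaaaccttaTGAATGTagtgaatgtgg
chr19:44476901-44476930: agaaaaacccttTGAATGTaatcagtgtgg
chr19:44476817-44476846: agagaaaccgtaTGAATGTagtgaatgtgg
chr19:44476565-44476594: agagaaaccattTGAATGTaatcagtgtgg
The first window and the one after it are 84 nt apart, as are the next pair, which is the length of 1 finger with its linker. The sequences under the Ago2 peaks themselves are not shown, because the peaks are placed on hg19 and the genome used here was GRCh38.

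Before the results, the limits of the table were these. The labels' 12 CLIP libraries are not separated in it, so there is no value per replicate, no test of hippuristanol against untreated cells was possible, and no p-value is given. The sources used here do not give the log base, so log ratios are in the authors' log units and cannot be turned into folds. How the ratios were corrected for RNA level is not given either, so more Ago2 per transcript, more transcript per cell and more cells that carry it cannot be told apart. Intervals are exact 95% intervals over peaks or genes as items, and peaks of the same gene are not independent. Among overlapping neighbouring peaks of ZNF genes, 5 of 10 pairs had log ratios of the same sign, and the members of a pair differed by a median of 0.57 and by up to 1.22. Of 4 markers fixed for 293S cells, LIN28B and NEFL had an Ago2 peak, and of 13 markers of other cell types none did, although a CLIP peak is not a measure of expression.

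Most Ago2 peaks on ZNF transcripts lay in 3′ UTRs, and coding peaks were about as frequent in ZNF genes as elsewhere. Of the 114 ZNF peaks, 23 (20.2%, interval 13.2 to 28.7%) lay in CDS, against 926 of 4604 peaks (20.1%) of all other genes. In 3′ UTRs lay 80 ZNF peaks (70.2%, interval 60.9 to 78.4%), against 2814 peaks of other genes (61.1%, interval 59.7 to 62.5%). Non-coding exons held 3 ZNF peaks (2.63%) and 687 peaks of other genes (14.9%). With CDS and 3′ UTR peaks alone in the denominator, the CDS share was 22.3% in ZNF genes (interval 14.7 to 31.6%) and 24.8% in other genes (interval 23.4 to 26.2%). The interval of the ZNF share spans values on either side of that of the other genes. In the 41 ZNF genes with at least 5 zinc fingers, 19 of 76 peaks lay in CDS (25%, interval 15.8 to 36.3%). Among peaks with a log average above the median of all peaks, the CDS share was 19.7% in ZNF genes (interval 10.9 to 31.3%) and 16.8% in other genes (interval 15.2 to 18.3%). Peaks were assigned to coding exons by the table and were not placed on single fingers.

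Counted by gene, 16 of 53 ZNF genes (30.2%, interval 18.3 to 44.3%) had a CDS peak, against 678 of 2160 other genes (31.4%). A CDS peak with no 3′ UTR peak was found in 10 ZNF genes (18.9%) and 450 other genes (20.8%). A 3′ UTR peak with no CDS peak was found in 33 ZNF genes (62.3%) and 1270 other genes (58.8%). Coding and 3′ UTR peaks together were found in 6 ZNF genes, and the other 4 had neither. Those 4 were ZNF644 and ZNF771, with 5′ UTR peaks, and ZNF271 and ZNF738, with peaks in non-coding exons.

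Per length of sequence, the densities of peaks were also close. On the longest annotated coding transcripts, ZNF genes had 0.238 CDS peaks per kb of CDS and 0.730 3′ UTR peaks per kb of 3′ UTR, a ratio of 0.326. All other genes had 0.233 and 0.683 peaks per kb in the same regions, a ratio of 0.341. For 3 ZNF genes, ZNF138, ZNF721 and ZNF805, that transcript has no annotated 3′ UTR although the table lists 3′ UTR peaks for them. Without genes of this kind the densities were 0.252 in CDS and 0.675 in 3′ UTR in 46 ZNF genes, a ratio of 0.374, against a ratio of 0.345 in the other genes, so the order of the ratios depends on this choice. Over all genes with a transcript, the coding sequence made up 46.9% of the combined CDS and 3′ UTR length in ZNF genes and 48.8% in other genes.

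The medians of the treatment ratio in CDS and 3′ UTR lay further apart in ZNF genes than in other genes, a difference that could not be tested on pooled values. The median log ratio of the 23 ZNF CDS peaks was 0.475 (interval 0.10 to 0.75), and that of the 80 ZNF 3′ UTR peaks was -0.09 (interval -0.26 to 0.17), so the intervals overlapped narrowly. Without ZNF711, the gene with the most peaks, the intervals were 0.26 to 0.84 for CDS and -0.27 to 0.17 for 3′ UTR peaks and did not overlap. A log ratio above 0 was found for 18 of 23 ZNF CDS peaks (78.3%, interval 56.3 to 92.5%), beside a background of 62.2% of all CDS peaks. A log ratio above 0 was found for 36 of 80 ZNF 3′ UTR peaks (45.0%, interval 33.9 to 56.5%), beside a background of 58.7% of all 3′ UTR peaks. Past 1 log unit the counts were small. Above 1 lay 4 ZNF CDS peaks, beside a background of 12.6% of all CDS peaks, and below -1 lay none of the 23, beside a background of 4.74%. Above 1 lay 6 ZNF 3′ UTR peaks, beside a background of 11.6% of all 3′ UTR peaks, and below -1 lay 5, beside a background of 4.42%. In all other genes the medians were 0.19 for CDS peaks (interval 0.14 to 0.26) and 0.16 for 3′ UTR peaks (interval 0.12 to 0.19). The CDS median minus the 3′ UTR median was 0.56 in ZNF genes and 0.03 in other genes. The ZNF 3′ UTR interval reached above the median of other genes' 3′ UTR peaks, and the ZNF CDS interval reached below that of their CDS peaks.

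**Figure D1:**
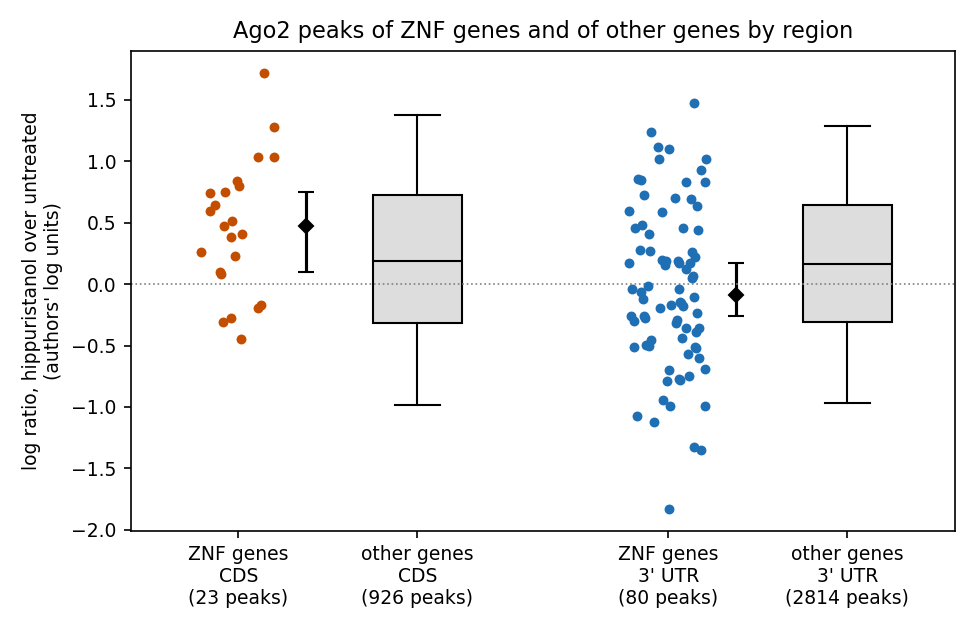
Log ratio of hippuristanol-treated over untreated cells in the authors' log units, for every Ago2 peak in the CDS and 3′ UTR of ZNF genes and for the peaks of all other genes, with diamonds and bars for the ZNF medians and their 95% intervals, and with boxes for the quartiles and whiskers for the central 90% of the other genes' peaks. The ZNF CDS peaks have a median of 0.475 and the ZNF 3′ UTR peaks of -0.09, against 0.19 and 0.16 in other genes, and all sets overlap widely.

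Over all regions, the log ratios of ZNF genes lay close to those of other genes. The median over the 114 ZNF peaks was 0.07 (interval -0.12 to 0.19), against 0.15 over the peaks of all other genes. A log ratio above 0 was found for 61 ZNF peaks (53.5%), beside a background of 59.1% of all peaks. Log ratios above 1 were found for 11 ZNF peaks, beside a background of 11.3% of all peaks, and below -1 for 5, beside a background of 4.22%. With 1 value per gene, the median of its peaks, the ZNF genes had a median of 0.17 and so did the other genes, and 31 of 53 ZNF genes lay above 0, beside a background of 60.5% of all genes. Gene medians above 1 were found for 4 ZNF genes, beside a background of 9.17%, and below -1 for 1, beside a background of 3.43%.

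Among the layouts compared, the ZNF genes with Ago2 peaks in CDS and no 3′ UTR peak had the highest median. Their 10 gene medians had a median of 0.65 (interval 0.39 to 1.28), and 9 of 10 lay above 0, against a median of 0.14 in the 450 other genes with the same layout, of which 262 lay above 0. The 33 ZNF genes with 3′ UTR peaks and no CDS peak had a median of -0.10 (interval -0.39 to 0.20), and 15 lay above 0. The 1270 other genes of that layout had a median of 0.17, and 768 of them lay above 0.

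The highest coding value belonged to ZNF317, a KRAB zinc finger gene, whose CDS peak at hg19 chr19:9271446-9271479 on the plus strand is listed at 1.72 in the authors' deposited table. ZNF14, another KRAB zinc finger gene, had 1.28 at chr19:19822893-19822916 on the minus strand in the authors' deposited table. Both lay above the 1.03 that the authors' deposited table gives for ZNF238, now named ZBTB18, a BTB-domain repressor needed for neuronal development, with a CDS peak at chr1:244217976-244218007. ZNF841, ZNF121 and ZNF180, each with 1 peak, had CDS log ratios of 0.84, 0.80 and 0.74 in the authors' deposited table. These 3 genes lie on chromosome 19, and each was bound in its coding sequence without a 3′ UTR peak. ZNF281, a regulator of pluripotent stem cells that binds GC-rich promoters, had 0.52 in the authors' deposited table, ZNF273 had 0.475 and ZNF358 had 0.39. The only gene of this layout with a value below 0 was ZNF567, at -0.19 in the authors' deposited table.

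ZNF770, which encodes a C2H2 protein, had a pair of CDS peaks and no 3′ UTR peak. In the authors' deposited table the peak at chr15:35275522-35275558 had a log ratio of 1.03 and the peak at chr15:35275359-35275385 had 0.10. Their log averages of -4.51 and -3.48 in the authors' deposited table were high for ZNF CDS peaks, whose median was -6.36. The centres of these peaks lay 168 nt apart, which is 2 times 84 nt, while their starts lay 163 nt apart, which leaves 79 nt beyond 1 repeat. A single pair of peaks does not show a spacing of Ago2 by fingers.

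**Figure D2:**
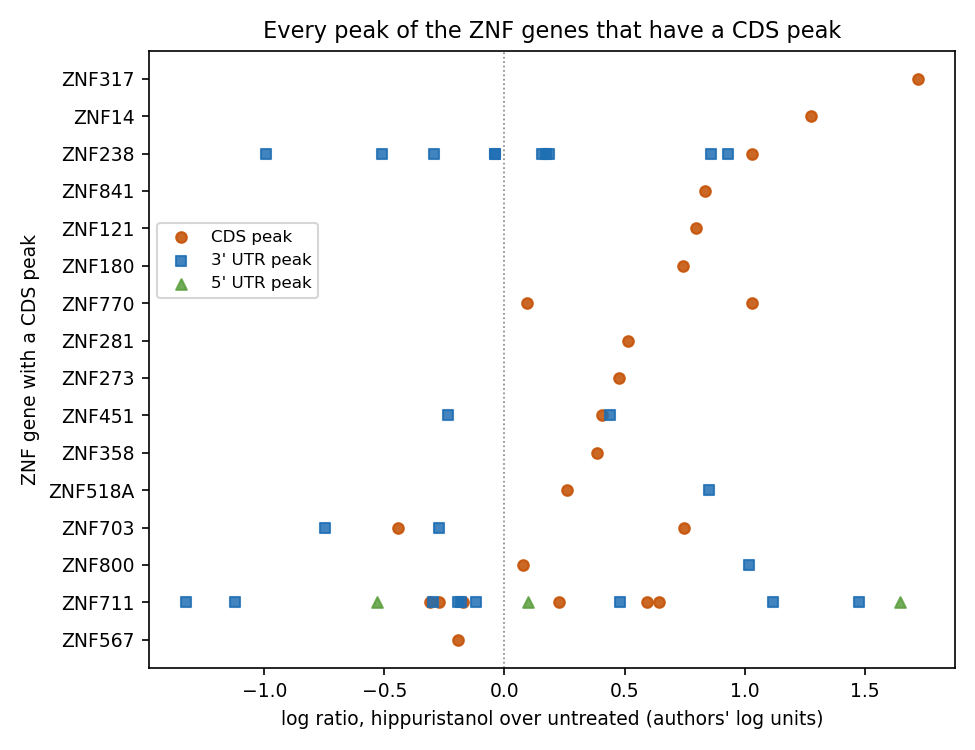
Log ratio of hippuristanol-treated over untreated cells, in the authors' log units, for every Ago2 peak of the 16 ZNF genes with a CDS peak, 1 gene per line, with the region of each peak shown by its marker. ZNF317 and ZNF14 stand at the right with 1.72 and 1.28, and ZNF711 spreads to either side of 0.

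Within the 6 ZNF genes that had peaks in both regions, the coding side was not higher throughout. The CDS median minus the 3′ UTR median was positive in 4 of 6, with a median of 0.26, and in other genes it was positive in 119 of 228, with a median of 0.04. From the authors' deposited table it was 0.97 in ZNF238 and 0.66 in ZNF703, a corepressor amplified in breast cancer. From the same values of the authors' deposited table it was 0.31 in ZNF451, a SUMO ligase, and 0.21 in ZNF711, a promoter-binding activator mutated in X-linked intellectual disability. It was -0.59 in ZNF518A and -0.94 in ZNF800, computed from the authors' deposited table. ZNF800 had a CDS value of 0.08 and a 3′ UTR value of 1.02 in the authors' deposited table, the opposite order to ZNF238. The within-gene median of 0.26 rests on these 6 genes, and the 0.56 between region medians also compares different genes.

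ZNF711 had more peaks than any other ZNF gene, 18, of which 6 lay in CDS, 9 in the 3′ UTR and 3 in the 5′ UTR. Its CDS peaks, along the transcript, had log ratios of -0.17, -0.31, 0.23, 0.59, -0.27 and 0.64 in the authors' deposited table. Its 3′ UTR peaks reached from -1.33 to 1.48 in the authors' deposited table, so single peaks of this gene lay at either end. Of its 18 peaks, 17 had a log average below -9, against none of the other 96 ZNF peaks, and 12.3% of the peaks of other genes were that low. Without ZNF711 the median log ratio was 0.52 over 17 ZNF CDS peaks, of which 15 lay above 0, and -0.04 over 71 3′ UTR peaks, and the difference remained 0.56.

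**Figure D3:**
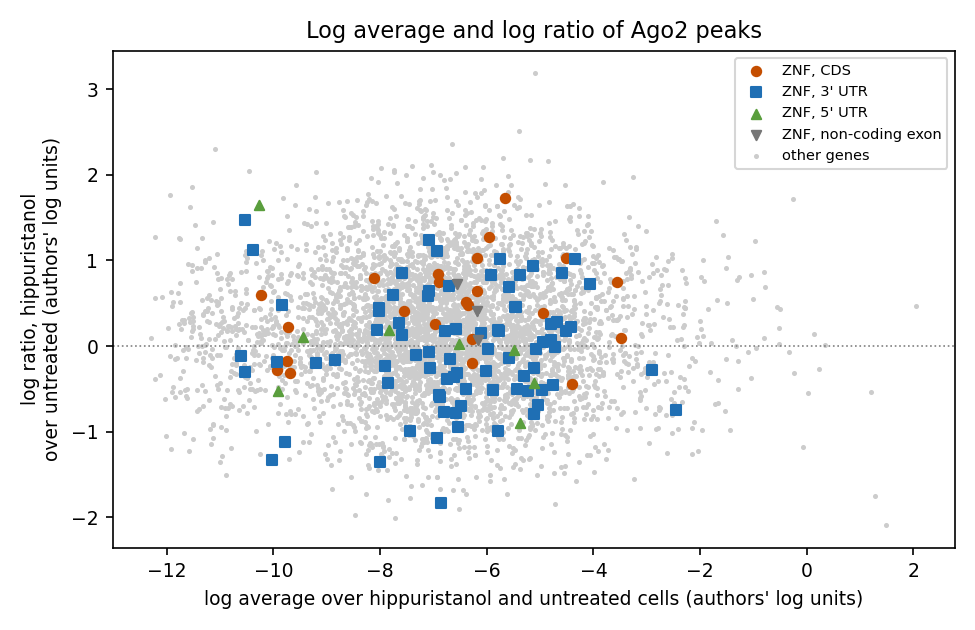
Log average over hippuristanol-treated and untreated cells against log ratio of hippuristanol-treated over untreated cells, both in the authors' log units, for ZNF peaks by region and for the peaks of all other genes. The ZNF points below a log average of -9 are all from ZNF711. The ZNF CDS points run from -10.23 to -3.48 in log average, within -12.29 to 2.06 for the peaks of all other genes.

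Genes bound mainly in the 3′ UTR varied among themselves. ZNF238 had 10 peaks there besides its CDS peak, with log ratios from -0.99 to 0.93 in the authors' deposited table. ZNF367, a transcription factor with 6 peaks, all in the 3′ UTR, lay above 0 in 5 of 6 and had a median of 0.46. Its peaks lie within 336 nt and some overlap, by 22 nt and by 6 nt. ZNF503, a relative of ZNF703, had 3′ UTR log ratios of 0.83, 0.22, -0.45 and -0.50 in the authors' deposited table. Some 3′ UTR peaks of ZNF238 and of ZNF503 overlap as well. ZNF264 had 3 peaks at -0.32, -0.50 and -0.51 in the authors' deposited table, and ZNF805 had 3 at -0.36, -0.78 and -0.94. These KRAB zinc finger genes lie close to each other on chromosome 19. Of the 10 ZNF genes with 3 or more peaks, only these 2 had all peaks below 0, and none had all peaks above 0. The ZNF264 peaks at -0.50 and -0.51 overlap by 22 nt. The share of other genes with 3 or more peaks that lay all below 0 was not computed. ZNF512B had 0.17, 0.26 and -0.69 in the authors' deposited table. ZNF768 had -1.07 and -0.77 in its 3′ UTR and 0.02 in its 5′ UTR, in the authors' deposited table.

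**Figure D4:**
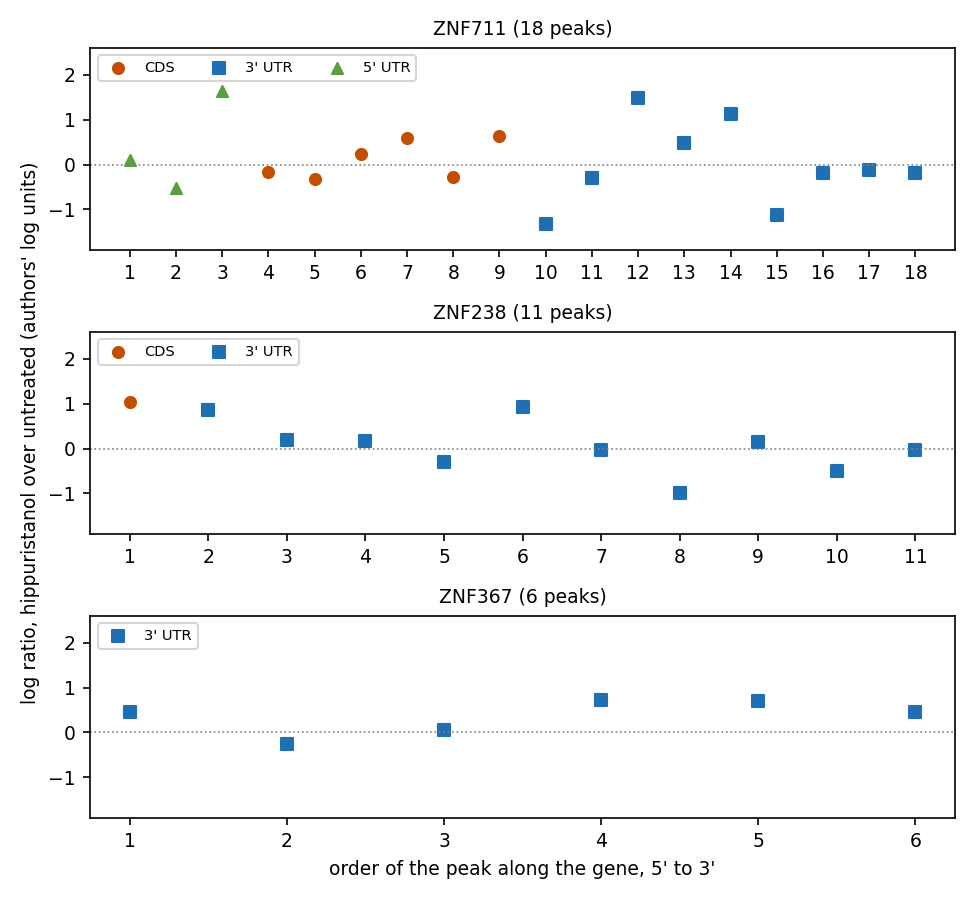
Log ratio of hippuristanol-treated over untreated cells, in the authors' log units, against the order of the Ago2 peaks from 5′ to 3′ in ZNF711, ZNF238 and ZNF367, the ZNF genes with the most peaks, with the region of each peak shown by its marker. ZNF711 spans -1.33 to 1.65 and ZNF238 -0.99 to 1.03, whereas 5 of 6 ZNF367 peaks, some of which overlap, lie above 0.

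The 3′ UTR peaks with the highest ratios, after ZNF711, were in ZNF148 (1.24), a regulator that binds GC-rich promoters, ZNF295 (1.10), now named ZBTB21, ZNF800 (1.02) and ZNF10 (1.02), all from the authors' deposited table. ZNF10, also called KOX1, supplies the KRAB domain used in many synthetic repressors. The lowest were in ZNF224, a KRAB repressor, at -1.83, ZNF664 at -1.35, ZNF711 at -1.33, ZNF768 at -1.07 and ZNF107 at -0.99, all from the authors' deposited table. The highest log average of a ZNF peak was -2.45, in the 3′ UTR of ZNF703, in the authors' deposited table, and that peak had a log ratio of -0.75. The next log averages among 3′ UTR peaks, taking 1 peak per gene, were those of ZNF367 at -4.07, ZNF800 at -4.34, ZNF503 at -4.42 and ZNF512B at -4.51 in the authors' deposited table. Among CDS peaks the highest log averages, 1 per gene, were -3.48 in ZNF770 and -3.56 in ZNF703 in the authors' deposited table, above all 3′ UTR peaks outside ZNF703. Over the 8 ZNF 5′ UTR peaks the median log ratio was -0.01, with 4 above 0, beside a median of 0.25 and a background of 63.2% above 0 for all 5′ UTR peaks.

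Chromosome 19 held 18 of the 53 ZNF genes (34.0%), against 5.74% of the other genes. The 7 CDS peaks of its ZNF genes, in 7 genes, had a median log ratio of 0.80 (interval -0.19 to 1.72), with 6 above 0. The 15 3′ UTR peaks, in 10 genes, had a median of -0.36 (interval -0.78 to 0.19), with 4 above 0, and the intervals overlapped. ZNF genes elsewhere had medians of 0.33 over 16 CDS peaks (interval -0.17 to 0.64) and -0.01 over 65 3′ UTR peaks (interval -0.18 to 0.19). In each region these intervals overlapped those of the ZNF genes on chromosome 19. The other genes of chromosome 19 had medians of -0.09 over 52 CDS peaks, 44.2% of them above 0, and 0.02 over 158 3′ UTR peaks, 51.3% of them above 0. No ZNF gene on chromosome 19 had peaks in both regions, so coding and 3′ UTR values there come from different genes.

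The number of fingers was similar whichever region was bound. Fingers were counted as matches of the spacing of the zinc-binding cysteines and histidines in the translated coding sequence. The 16 ZNF genes with CDS peaks had a median of 10 fingers, and 13 of them (81.3%) had at least 5. The 33 with 3′ UTR peaks and no CDS peak had a median of 9, and 26 (78.8%) had at least 5. With a stricter spacing the counts were 10 of 16 and 24 of 33, which turns the order of the shares. ZNF238, ZNF281 and ZNF703 were the CDS-bound genes with fewer than 5, at 4, 3 and 0 matches. Among the genes with at least 5 fingers the median log ratio was 0.41 (interval 0.08 to 0.80) over 19 CDS peaks, of which 15 lay above 0. It was -0.16 (interval -0.36 to 0.19) over their 50 3′ UTR peaks, of which 20 lay above 0, and the intervals overlapped. Genes with fewer than 5 fingers had the same order of medians. Theirs were 0.63 over 4 CDS peaks, 3 above 0, and 0.09 over 30 3′ UTR peaks, 16 above 0.

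Seed matches of miR-181a-5p were dense in ZNF coding sequence whether or not Ago2 peaks lay there. CDS-bound ZNF genes held 51 sites, or 1.45 per kb of CDS, in 56.3% of the genes. ZNF genes with 3′ UTR peaks and no CDS peak held 1.19 per kb, and the 462 annotated ZNF genes without a peak held 1.71 per kb. The 18970 other annotated coding genes held 0.0852 per kb, with a site in 11.4% of them. For miR-23a-3p the densities were 0.567 per kb in CDS-bound ZNF genes, 1.74 in ZNF genes with 3′ UTR but no CDS peaks and 0.0967 in other coding genes. For miR-199a-5p they were 0.623, 0.861 and 0.101 per kb in the same order. For these 3 microRNAs the density was higher in each ZNF set than in other coding genes, and lower in ZNF genes with CDS peaks than in ZNF genes without a peak. For miR-181a-5p the latter order depends on genes with few fingers. CDS-bound ZNF genes with at least 5 fingers held 1.74 per kb, against 1.34 in such genes with 3′ UTR but no CDS peaks. The genes without a peak were not split by fingers. For miR-16-5p the density was lower, at 0.142 per kb in CDS-bound ZNF genes and 0.346 per kb in other coding genes.

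**Figure D5:**
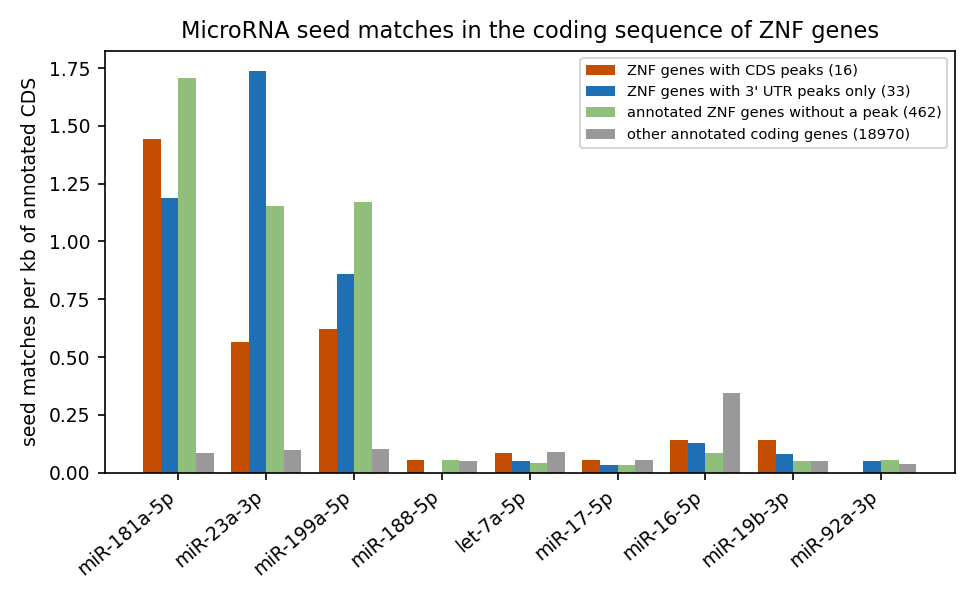
Seed matches of 7 nt per kb of annotated coding sequence for each microRNA. The sets are ZNF genes with CDS peaks, ZNF genes with 3′ UTR but no CDS peaks (labelled 3′ UTR peaks only), annotated ZNF genes without a peak and other annotated coding genes. For miR-181a-5p the ZNF sets stand at 1.45, 1.19 and 1.71 per kb, against 0.0852 in other coding genes.

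The place of the miR-181a-5p sites followed the finger repeat. Of the 51 sites in CDS-bound ZNF genes, 50 were in the frame that reads glutamate-cysteine, and 46 (90.2%) covered a zinc-binding cysteine. Of these sites 1 overlapped a miR-23a-3p site, and of 42 neighbouring pairs of sites 29 (69.0%) lay whole multiples of 84 nt apart, 15 of them exactly 84 nt, as in the ZNF180 windows above. The coding sequence of ZNF180 and ZNF567 held 11 sites each, that of ZNF14 10, ZNF841 9, ZNF121 4, ZNF273 and ZNF317 2 each, and ZNF770 and ZNF800 1 each. CDS peaks of the genes with a site had a median log ratio of 0.77 (interval 0.08 to 1.28, 10 peaks in 9 genes, 9 above 0). Those of the genes without a site had 0.39 (interval -0.27 to 0.64, 13 peaks in 7 genes, 9 above 0), and the intervals overlapped. ZNF711, which has no site, supplied 6 of these 13 peaks, 3 of them below 0. The sites were counted over the whole coding sequence and not under the peaks, and microRNA levels were not analysed here.

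Related gene lists were small, and the intervals of their CDS shares overlapped that of ZNF genes. Other C2H2 families, such as ZBTB, ZIC and KLF genes, had 39 peaks in 19 genes. Of these peaks 3 (7.69%, interval 1.62 to 20.9%) lay in CDS, below the 20.2% of ZNF genes but with overlapping intervals. By older name ZNF238, ZNF295 and ZNF498 were counted as ZNF genes, although their current symbols, ZBTB18, ZBTB21 and ZSCAN25, belong to such families. Their gene medians had a median of 0.21, with 11 of 19 above 0, beside the background of 60.5% of all genes, and their most abundant peaks, all in 3′ UTRs, had log ratios of 0.80 in ZBTB7B, 0.33 in ZIC2, -0.71 in ZBTB47 and -0.64 in KLF11 in the authors' deposited table. Of 23 genes of the KRAB repression machinery, 4 had peaks, and the share of all coding genes with a peak was not computed. Of the 7 peaks of these 4 genes, 6 lay above 0, beside a background of 59.1% of all peaks. Their median log ratio was 0.51 (interval -0.38 to 0.63), and the lowest was -0.38. In the authors' deposited table, the 3′ UTR peak of TRIM28, the corepressor that KRAB domains bind, had a log ratio of 0.63. The 3′ UTR peaks with the highest log average in CBX3, a heterochromatin protein, and RBBP7, a histone chaperone, had 0.51 and 0.30 in the authors' deposited table. The chromatin remodeller CHD4 had a CDS peak at 0.57 in the authors' deposited table.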

How the data were processed

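Per the file headers, the authors deposited normalized scores, 1 log average and 1 log ratio per peak, pooled over libraries. The submitters' processing notes name hg19, DESeq, TopHat and Bowtie 0.12.8 without roles. The sources used here do not give the peak caller, log base or kind of normalization, and depth per library is unknown. ZNF genes were taken by name, and 50 repeated entries of other genes were counted once. Regions are the table's annotation classes. Medians have order-statistic and shares Clopper-Pearson 95% intervals (SciPy 1.17.1), tested on simulated data. Pooled values allowed no test between treatments. Lengths, fingers and seed matches come from GENCODE 29 on GRCh38 (longest coding transcript) and describe the gene, not the peak. A coding transcript was found for 49 of 49 ZNF genes with a CDS or 3′ UTR peak, 46 of them with an annotated 3′ UTR, and for 99.2% of the others. Reads shared between near-identical ZNF paralogs may be assigned to either. The rule for ZNF genes named with a log ratio was peaks in both regions or at least 3 peaks. It also took the 5 extremes of each region by log ratio and the 5 highest by log average. Outside this rule, the remaining ZNF genes with a CDS peak and no 3′ UTR peak were added, so all 10 are named. The members and lists were chosen with earlier results of these data known.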

Additional observations from a re-analysis of the deposited data

How the results depend on the processing

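Of 55 alternative values, 46 stayed within the interval or factor set for them and 9 were labelled as moved. The ZNF770 spacing is among these 9, and it had no interval or factor to be compared with. No log ratio median or difference changed sign. Some of the 46 could not move. No repeated entry lay in a ZNF gene, so counting every entry left the ZNF values as they were. Subtracting the median of all peaks likewise cannot change the CDS minus 3′ UTR difference. The range allowed for that difference joined the outer ends of both intervals and was wide. The ZNF CDS share ranged from 17.7 to 25%, the median log ratio of ZNF CDS peaks from 0.32 to 0.52, that of ZNF 3′ UTR peaks from -0.24 to -0.01, and their difference from 0.49 to 0.60. The CDS share of other genes was 21.4% with overlapping peaks merged, 16.8% among peaks with a log average above the median, 24.8% with CDS and 3′ UTR peaks in the denominator and 24.8% as a mean over genes. At a threshold of 0.5 in place of 1, 30 ZNF peaks lay above and 22 below. Around the median of all peaks, 5 lay above and 9 below, which turns the balance of 11 above and 5 below. The shares of all peaks at these settings were not computed, so these counts do not set ZNF genes apart from other genes. The remainder beyond whole repeats between the ZNF770 CDS peaks was 0 nt by centres and 79 nt by starts. The alternatives restricted to genes with at least 5 fingers, to genes that kept a ZNF name and to genes with an annotated 3′ UTR were chosen after seeing the data. No paired analysis was possible because the table pools the libraries, and for the same reason no replicate could be left out.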
